A study of Mus musculus with 18 samples.

Results

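Primary cholangiocytes of mice with polycystic liver disease (PLD) were compared after treatment with 1 of 2 small molecules, CPTH6 or ML324. The comparison rests on 6 of the 18 libraries of the series, 3 labelled CPTH6 and 3 labelled ML324, all titled 3 months, and it uses every gene that passed a filter on low counts. Both groups carry the PLD genotype, and neither holds an untreated library. The other libraries are untreated PLD and wild-type (WT) mice at 1 and at 2 months after tamoxifen, 3 in each group, and of these only the 2-month groups are shown here, as levels. The gene inactivated by tamoxifen, its promoter, the strain, the sex, the dose, the route and the length of treatment are not given in the sources used here. Whether replicates are separate animals is not stated either, so the p-values cover variation between libraries alone, part or all of which may be technical. The cells were freed from minced biliary trees after the parenchyma had been removed, and were pulled out with magnetic beads against EpCAM, an adhesion protein of epithelia. PolyA RNA was sequenced and counted per gene.

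Cholangiocytes are the epithelial cells that line bile ducts and change bile by secretion and absorption, and in polycystic liver disease they divide and secrete fluid until ducts become cysts. CPTH6 is known to block the lysine acetyltransferases Kat2a and Kat2b, which add acetyl groups to histones within the SAGA and ATAC complexes and are linked with active promoters. ML324 is known to block the KDM4 demethylases, which remove methyl groups from histone H3 lysines and so counter marks of silent chromatin and of transcribed gene bodies. One compound is thus known for enzymes that add a histone mark and the other for enzymes that remove one.

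The 6 libraries held 25646673, 29161949 and 26266015 counts with CPTH6 and 17922506, 16345740 and 17460612 counts with ML324, and throughout, library values are given in the order of replicates 1, 2 and 3. Depth therefore did not overlap between the groups. Neither did the share of counts on the mitochondrial genome, which was 2.24%, 2.36% and 2.22% with CPTH6 and 1.40%, 1.74% and 1.63% with ML324. Long noncoding RNAs took 0.784%, 0.530% and 0.749% of counts with CPTH6 and 0.954%, 0.917% and 0.806% with ML324, again without overlap. Levels are given in CPM, that is, counts per 1000000 counts of the library after TMM scaling. The defining markers of cholangiocytes were present in every library: Krt19, a keratin of ducts, had 2996, 3639 and 2899 CPM in CPTH6 libraries, against 3326, 2655 and 3734 CPM in ML324 libraries, and Epcam, the target of the beads, had 794, 922 and 803 CPM in CPTH6 libraries, against 745, 700.2 and 894 CPM in ML324 libraries. All 18 libraries had 0 to 8 counts of Xist and 276 to 5334 counts of each of 4 Y-linked genes, so that none had the pattern of female tissue.

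Of 15989 genes tested, edgeR's quasi-likelihood test called 0 (0%) at an adjusted p under 0.05, and the smallest adjusted p was 0.209, for Vnn3. An unadjusted p under 0.05 was reached by 2008 genes, 958 higher with CPTH6 (5.99%) and 1050 lower (6.57%). With total counts in place of TMM factors these were 614 and 1418, and the median of all genes was -0.07 instead of -0.02 on the log2 scale. Every CPTH6 library lay above every ML324 library for 1509 genes (9.44%) and below for 1605 (10%). All counts of list members without overlap are to be read beside these shares. DESeq2, an alternative tool run on the same counts, gave an adjusted p to 13502 genes and called 299 of them, 167 higher with CPTH6 (1.24%) and 132 lower (0.978%), while limma-voom called 0 and gave 2043 an unadjusted p under 0.05. Among DESeq2's 299 genes, 297 had no overlap between the libraries and 247 averaged at least 10 CPM. A gene missing the threshold is not shown to respond alike to both compounds: the median half-width of the 95% interval was 0.41 on the log2 scale, against a median difference of 0.19 in either direction. All differences given here are log2 fold changes of CPTH6 over ML324 with the standard error and n = 3 libraries per group, every one has an edgeR adjusted p of at least 0.209, and "above" or "below" says that the CPM values of the 2 groups did not overlap.

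**Figure D1:**
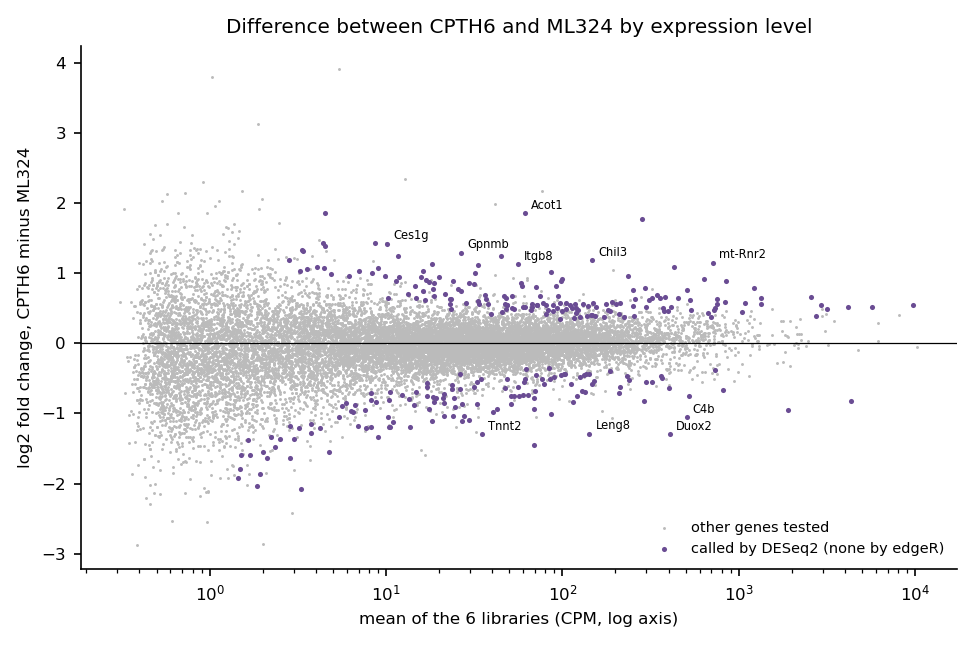
Log2 fold change of CPTH6 over ML324 (vertical axis) against the mean CPM of the 6 libraries (horizontal log axis) for the 15989 genes tested. Purple points are the 299 genes called by DESeq2, grey points all others, and edgeR called 0; 10 of the genes with large differences are named.

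The main axis of variation among the 6 libraries did not follow the compounds. The first principal component held 36.6% of the variance, and the scores were -26.2, 35.4 and 22.8 for CPTH6 libraries and -35.7, 34.0 and -30.4 for ML324 libraries, so that CPTH6 replicates 2 and 3 and ML324 replicate 2 stood on one side. Its leading genes were those of neutrophil granules and immunoglobulins. Ngp, a granule protein of maturing neutrophils, had 4.96, 179 and 192 CPM in CPTH6 libraries, against 11.6, 69.8 and 1.86 CPM in ML324 libraries. Igkc, the constant region of the kappa light chain, had 18, 429 and 291 CPM in CPTH6 libraries, against 42.1, 570.1 and 52.5 CPM in ML324 libraries. Both were high in the same 3 libraries, and of 48 genes with at least 10 CPM in a library and a range of over 20-fold, 34 were immunoglobulin genes. The second component held 24.1% and did separate the groups, at 20.9, 36.5 and 4.59 for CPTH6 and -8.12, -43.1 and -10.8 for ML324; Acot1, Angptl4, Ccl9, Chil3 and Gpnmb were among its leading genes on the CPTH6 side.

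**Figure D2:**
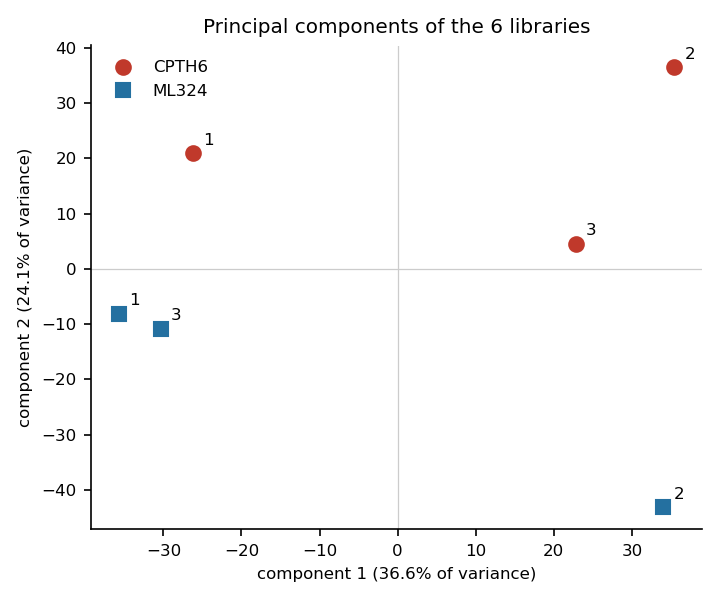
Scores of the 6 libraries on the first (horizontal) and second (vertical) principal components of log2 CPM, with replicate numbers beside the points. CPTH6 replicates 2 and 3 lie with ML324 replicate 2 on the right, and all CPTH6 libraries lie above all ML324 libraries on the second component, the lowest at 4.59 and the highest ML324 library at -8.12.

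Since edgeR called no gene, the genes with the largest differences were taken among those with an unadjusted p under 0.05, no overlap and a mean of at least 10 CPM, a group of 626 higher and 528 lower with CPTH6. In the higher group stood Acot1 (ENSMUSG00000072949.6, chromosome 12 from 84009490 to 84018371, mm10), a cytosolic acyl-CoA thioesterase of fatty acid metabolism, with 106, 119 and 63.1 CPM in CPTH6 libraries, against 34.3, 31.6 and 13.5 CPM in ML324 libraries (log2 fold change 1.86 ± 0.36, 95% interval 1.04 to 2.68), a mean 3.63-fold higher. Every CPTH6 library was above every ML324 library, and ML324 replicate 3 was lowest. Ces1g, a carboxylesterase that splits lipid esters, stood at 1.42 ± 0.29, then Gpnmb, a glycoprotein of lipid-laden macrophages, at 1.29 ± 0.21, and the zinc finger gene Zfp296 at 1.25 ± 0.21. The myeloid chemokines Ccl6 and Ccl9 differed by 1.24 ± 0.21 and 1.13 ± 0.16, and Chil3, a chitinase-like protein of myeloid cells, by 1.19 ± 0.30. The group also held mt-Rnr2, the large ribosomal RNA of mitochondria (1.15 ± 0.18), and Itgb8, an integrin subunit that activates latent TGF-beta (1.13 ± 0.27).

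In the opposite direction stood Duox2 (ENSMUSG00000068452.8, chromosome 2 from 122279247 to 122298449), a dual oxidase that releases hydrogen peroxide at mucosal surfaces, with 268, 216 and 221 CPM in CPTH6 libraries, against 530.3, 338 and 863 CPM in ML324 libraries (log2 fold change -1.30 ± 0.30, 95% interval -1.99 to -0.61). Tnnt2 (ENSMUSG00000026414.13, chromosome 1 from 135836354 to 135852260), known as the troponin T of heart muscle, had 25.4, 14.6 and 20.5 CPM in CPTH6 libraries, against 51, 50.7 and 46.9 CPM in ML324 libraries (log2 fold change -1.30 ± 0.18, 95% interval -1.72 to -0.87). The Duox2 levels of ML324 libraries spread widely with replicate 3 highest, whereas those of Tnnt2 lay within a narrow range well clear of the CPTH6 libraries. Leng8, a nuclear RNA-binding protein gene, was lower by -1.29 ± 0.22, Eid3, named as an inhibitor of differentiation that binds the acetyltransferase Ep300, by -1.19 ± 0.33, and the interferon-induced genes Oas2 and Ddx60 by -1.10 ± 0.26 and -1.03 ± 0.25. Spink4, a peptide of goblet cells, stood at -1.10 ± 0.33, Msh5, a meiotic mismatch repair gene, at -1.05 ± 0.22, and C4b, a complement component, at -1.05 ± 0.14. C4b was among the most regular of these, with 324, 375 and 293 CPM in CPTH6 libraries, against 733, 580.4 and 735 CPM in ML324 libraries. Vnn3, a pantetheinase gene chosen here for its smallest p, had 30.7, 30.6 and 26.5 CPM in CPTH6 libraries, against 59.3, 54.1 and 54.3 CPM in ML324 libraries (log2 fold change -0.93 ± 0.10, 95% interval -1.16 to -0.70). Some of these genes have closely related copies (Acot1 and Acot2, Ces1g and its family, C4b and its copy), and reads that match more than 1 copy may be missing from the counts, so their levels are uncertain.

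**Figure D3:**
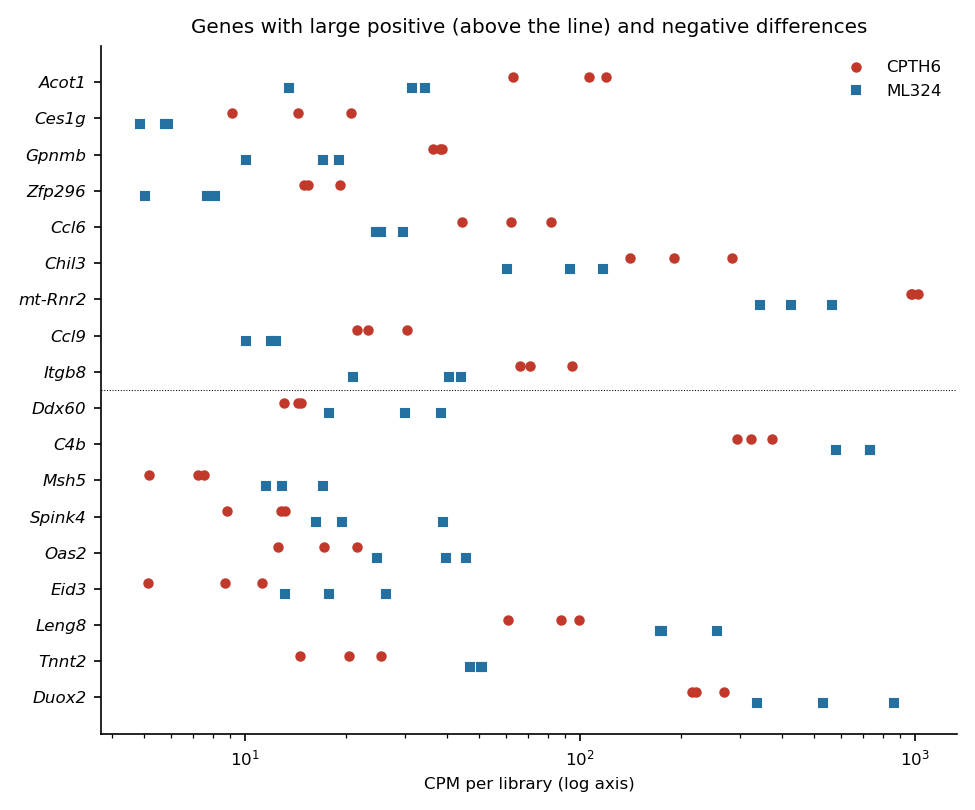
CPM of each library (horizontal log axis) for 18 genes with large differences, in red circles for CPTH6 and blue squares for ML324. In the upper 9 genes all CPTH6 points lie to the right of the ML324 points, as for Acot1 with 63.1 CPM or more against 34.3 CPM or less, and in the lower 9 genes they lie to the left.

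The enzymes that the compounds are known to bind did not differ in RNA beyond the spread between libraries. Kat2a had 30.6, 30.2 and 25.7 CPM in CPTH6 libraries, against 33.6, 25.4 and 28.2 CPM in ML324 libraries, a difference of -0.01 ± 0.13 with an interval of -0.32 to 0.30. Kat2b had 101, 116 and 98.2 CPM in CPTH6 libraries, against 98.4, 92.3 and 78 CPM in ML324 libraries (log2 fold change 0.23 ± 0.12, 95% interval -0.04 to 0.50). Both pairs of groups overlapped. For the ML324 targets, Kdm4a had 65.2, 56.5 and 58 CPM in CPTH6 libraries, against 81.2, 73.1 and 58.7 CPM in ML324 libraries, and the differences of Kdm4a, Kdm4b and Kdm4c were -0.25 ± 0.13, 0.09 ± 0.09 and 0.08 ± 0.10, also with overlap. The acetyltransferase list had 2 of 17 tested members above and 0 below with a median of 0.09, and the larger of its members above was Clock, a circadian factor with acetyltransferase activity (0.39 ± 0.12). Of 23 subunits of the SAGA and ATAC complexes, 1 was above and 2 below (median -0.01).

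Other chromatin enzymes showed small differences of both signs. Among histone demethylases, 6 of 21 (28.6%) were above and 0 below, beside 9.44% and 10% of all genes, and the median was 0.08. Kdm5b, which removes methyl groups from histone H3 at promoters, had 109, 126 and 90 CPM in CPTH6 libraries, against 81.2, 78.5 and 78.3 CPM in ML324 libraries (0.45 ± 0.13). Jmjd1c, a relative of the Kdm3 demethylases, had 463, 603 and 527 CPM in CPTH6 libraries, against 455, 385 and 347 CPM in ML324 libraries (0.43 ± 0.14). Both groups of values were close to each other but separate. Among methyltransferases, 3 of 21 were above and 5 below, including Nsd2 at -0.40 ± 0.12 and Kmt2c at -0.33 ± 0.10. Among deacetylases and sirtuins, 3 of 18 were above and 3 below. Sirt1, a deacetylase that depends on NAD, had 154, 138 and 131 CPM in CPTH6 libraries, against 80.7, 115 and 92.4 CPM in ML324 libraries (0.55 ± 0.14), and Hdac11 had 86.5, 90.1 and 100.5 CPM in CPTH6 libraries, against 74, 67.3 and 65.3 CPM in ML324 libraries (0.42 ± 0.10). DESeq2 called both, and no member of the acetyltransferase, demethylase or methyltransferase lists.

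Interferon-stimulated genes had the lowest median of the 64 lists with at least 5 tested genes. Interferons signal through factors such as Stat2 and Irf9, which bind short repeats of GAAA in the promoters of genes against viruses. Of 32 members tested, 29 had negative differences, and the median was -0.54, against -0.02 for all genes. The share below, 4 members (12.5%), was near the 10% of all genes, 1 (3.12%) was above, against 9.44% of all genes, and DESeq2 called 2 lower. To show the kind of sequence involved, the promoter windows of RefSeq (GRCm38.p6, 250 bases before to 50 after the start) were searched on both strands for a pair of GAAA tetramers with any 2 bases (N) between them. A match was found for 16 of the 24 list members with a window (66.7%) and for 430 of 11425 tested genes (3.76%), where matches can overlap each other. The list was made of genes known for such repeats, so its higher share says nothing about the compounds. The windows of the 3 members with a match and the smallest p follow, 5′ to 3′ on the strand of the gene, with matches in capitals. They lie at chr4:156200769-156201068 (minus strand, 3 overlapping matches) for Isg15, at chr10:128270248-128270547 (plus strand, 1 match, on the opposite strand) for Stat2 and at chr5:120777610-120777909 (minus strand, 1 match) for Oas3.
Isg15: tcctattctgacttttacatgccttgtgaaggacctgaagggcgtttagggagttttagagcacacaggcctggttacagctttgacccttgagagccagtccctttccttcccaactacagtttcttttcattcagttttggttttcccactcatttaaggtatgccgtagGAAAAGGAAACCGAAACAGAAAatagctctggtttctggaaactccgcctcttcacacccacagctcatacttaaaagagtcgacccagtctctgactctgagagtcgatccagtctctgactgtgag
Stat2: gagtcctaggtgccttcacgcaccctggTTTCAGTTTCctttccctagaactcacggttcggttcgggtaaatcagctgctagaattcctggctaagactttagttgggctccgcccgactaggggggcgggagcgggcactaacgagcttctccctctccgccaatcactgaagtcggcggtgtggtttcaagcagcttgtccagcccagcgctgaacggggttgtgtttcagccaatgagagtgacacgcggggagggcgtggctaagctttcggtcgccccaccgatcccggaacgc
Oas3: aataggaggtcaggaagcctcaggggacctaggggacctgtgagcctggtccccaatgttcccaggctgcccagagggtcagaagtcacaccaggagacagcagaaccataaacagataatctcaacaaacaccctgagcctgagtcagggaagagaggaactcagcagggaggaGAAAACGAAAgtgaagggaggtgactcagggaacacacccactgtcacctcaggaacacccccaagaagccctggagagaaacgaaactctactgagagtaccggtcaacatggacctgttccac
Negative differences were found in 15 of the 16 members with a match and in 6 of the 8 without one, a split that was not tested. A match is a description of letters and not a site of binding.

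Isg15, a small protein joined to others like ubiquitin, had 16.9, 18.9 and 15.4 CPM in CPTH6 libraries, against 23.5, 29.4 and 43.7 CPM in ML324 libraries (log2 fold change -0.91 ± 0.22, 95% interval -1.42 to -0.41). Stat2, which carries the signal into the nucleus, had 41.9, 60.1 and 52.4 CPM in CPTH6 libraries, against 61.2, 78.8 and 112 CPM in ML324 libraries (log2 fold change -0.70 ± 0.22, 95% interval -1.22 to -0.19). Oas2, a sensor of double-stranded RNA, had 17.2, 21.6 and 12.5 CPM in CPTH6 libraries, against 39.7, 24.7 and 45.8 CPM in ML324 libraries and was called lower by DESeq2, as was Isg15. In all of these the lowest ML324 library was above the highest CPTH6 library. Oas3, a sensor of the same family, had 8.91, 13.7 and 6.98 CPM in CPTH6 libraries, against 15.6, 13 and 29 CPM in ML324 libraries (-0.96 ± 0.34), with overlap. Irf7, a factor that amplifies interferon production, had 62.4, 83 and 59.8 CPM in CPTH6 libraries, against 73.2, 93.5 and 156 CPM in ML324 libraries (-0.65 ± 0.27), also with overlap. ML324 replicate 3 was highest in each of these 5 genes, and without it the list median was -0.23; leaving out any other library left it between -0.71 and -0.42. Irf1 went the other way, with 182, 196 and 213 CPM in CPTH6 libraries, against 141, 170.2 and 114 CPM in ML324 libraries (0.47 ± 0.15). Further interferon-induced genes, chosen after their values were seen, were below as well: Rnf213 at -0.83 ± 0.22, Uba7, which activates Isg15, at -0.87 ± 0.20, and Gbp9 at -0.98 ± 0.28.

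Antigen presentation through MHC class I showed 9 of 14 negative differences, with a median of -0.23. Of these genes 1 (7.14%) was below, near the 10% of all genes, and 0 were above, against 9.44%. The member below was Nlrc5, the transactivator of MHC class I genes, with 41.6, 49.8 and 50.7 CPM in CPTH6 libraries, against 73.8, 72.9 and 126 CPM in ML324 libraries (log2 fold change -0.94 ± 0.21, 95% interval -1.43 to -0.45). Psmb8, an immunoproteasome subunit, had 48.6, 49.2 and 67.4 CPM in CPTH6 libraries, against 59.2, 70 and 112 CPM in ML324 libraries (-0.55 ± 0.24), with overlap. Without ML324 replicate 3 the list median was 0.06. The complement and acute phase list had 2 of 18 (11.1%) below, also near the 10% of all genes, and 0 above (median -0.16). The 2 below were C4b and C3, the central complement protein. C3 had 1473, 1702 and 1714 CPM in CPTH6 libraries, against 1885, 1882 and 2102 CPM in ML324 libraries (-0.26 ± 0.12).

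Fatty acid oxidation showed the opposite pattern. In this pathway Cpt1a and Slc25a20 carry fatty acyl groups into mitochondria, and the acyl-CoA dehydrogenases and the trifunctional protein shorten them; many of the genes are targets of the PPAR receptors. Of 28 members tested, 13 (46.4%) were above and 0 below, against 9.44% and 10% of all genes. Differences were positive in 25, DESeq2 called 7 higher, against 1.24% over all genes, and the median was 0.29. For Cpt1a the levels were 268, 309.8 and 288 CPM in CPTH6 libraries, against 231, 203 and 225 CPM in ML324 libraries (0.39 ± 0.10). Slc25a20, the carnitine carrier, had 35, 44.2 and 41.2 CPM in CPTH6 libraries, against 30.2, 25 and 24 CPM in ML324 libraries (0.60 ± 0.13). Acadm, the medium-chain dehydrogenase, had 131, 146 and 134 CPM in CPTH6 libraries, against 104, 109 and 91.4 CPM in ML324 libraries (0.43 ± 0.10). In each of these 3 the groups were separate by a small margin. The trifunctional protein subunits Hadha and Hadhb differed by 0.38 ± 0.11 and 0.51 ± 0.13, the thiolase Acaa2 by 0.47 ± 0.11, and Plin2, which coats lipid droplets, by 0.45 ± 0.15. Ppargc1a, the coactivator that drives genes of mitochondrial oxidation, had 21.3, 20.1 and 19.7 CPM in CPTH6 libraries, against 12.4, 12.2 and 11.6 CPM in ML324 libraries (log2 fold change 0.75 ± 0.11, 95% interval 0.49 to 1.01), the smallest p of the list. The receptor gene Ppara itself was low, at 1.36, 1.39 and 2.21 CPM with CPTH6 and 1.71, 2.14 and 1.45 CPM with ML324. Angptl4 and Pdk4, PPAR targets that respond to fasting, stood at 0.90 ± 0.28 and 0.55 ± 0.22 with overlap, and Acot2 and Hsdl2, outside the list and chosen after their values were seen, at 0.94 ± 0.17 and 1.02 ± 0.19 without. Leaving out any 1 library kept the list median between 0.21 and 0.33, and in a fit with the levels of endothelial and fibroblast markers as covariates it was 0.19.

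Sterol synthesis had negative differences in 22 of 24 members, with 4 (16.7%, against 10% of all genes) below, 0 above, 1 called lower by DESeq2 and a median of -0.46. Among its enzymes Sqle and Lss make the first sterol, and the factor Srebf2 drives the pathway. Lss had 15.7, 13.5 and 16.9 CPM in CPTH6 libraries, against 20.6, 20.8 and 40 CPM in ML324 libraries (-0.82 ± 0.26), and Msmo1, a demethylating oxidase of the pathway, had 21.4, 19.4 and 17 CPM in CPTH6 libraries, against 21.5, 28.3 and 58.1 CPM in ML324 libraries (-0.90 ± 0.33). These were separate between the groups, although ML324 replicates 1 and 2 lay close to the CPTH6 libraries. Sqle had 21.8, 17.7 and 14.8 CPM in CPTH6 libraries, against 17.2, 28.2 and 56.2 CPM in ML324 libraries (-0.90 ± 0.38), with overlap. In all 3 genes ML324 replicate 3 was by far the highest. Without ML324 replicate 3 the list median was -0.01, and with the marker covariates it was -0.01. That fit adds endothelial and fibroblast terms to only 6 libraries, so few degrees of freedom remain. Endothelial markers summed to 250.4 CPM in ML324 replicate 3 and to 1019 CPM in ML324 replicate 2. The part of other cells in the sterol result was not tested. Fdps, which makes farnesyl diphosphate, was also below, at 0.504, 0.293 and 0.381 CPM with CPTH6 and 1.38, 0.809 and 1.63 CPM with ML324, a level at which counts are few. Fatty acid synthesis showed no such lean: 0 of 17 above, 2 below and a median of 0.00.

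Immediate early genes, the transcription factors that cells switch on within minutes of a stimulus, had positive differences in 24 of 24 members. Of these 9 (37.5%) were above and 0 below, against 9.44% and 10% of all genes. DESeq2 called 5 higher, against 1.24% over all genes, and the median was 0.32, or 0.20 with the marker covariates. Fos had 3393, 4017 and 3659 CPM in CPTH6 libraries, against 2980, 2461 and 2445 CPM in ML324 libraries (0.49 ± 0.13). Egr1 had 3544, 3634 and 3171 CPM in CPTH6 libraries, against 2820, 2586 and 1940 CPM in ML324 libraries (0.49 ± 0.16), and Ier2 had 516, 631 and 516 CPM in CPTH6 libraries, against 359.5, 391 and 314 CPM in ML324 libraries (0.64 ± 0.13). Fos and Egr1 were thus abundant in both groups, and the groups were separate in all 3 genes. These genes are also known to respond to tissue dissociation, whose length per sample is not in the labels, and its part in the result was not tested. Targets of NF-kB had 7 of 27 (25.9%) above and 0 below (median 0.27, or 0.15 with the marker covariates). Icam1, an adhesion molecule for leukocytes, had 673, 1034 and 772 CPM in CPTH6 libraries, against 469, 476 and 372 CPM in ML324 libraries (log2 fold change 0.91 ± 0.18, 95% interval 0.50 to 1.33), and Nfkbia, the feedback inhibitor, had 784, 734 and 628 CPM in CPTH6 libraries, against 572, 582 and 465 CPM in ML324 libraries (0.41 ± 0.14). Il1a stood at 0.85 ± 0.25 and was called higher by DESeq2, and the chemokine and interleukin list as a whole had 2 of 28 above and a median of 0.03. Gadd45b, a stress sensor listed among cell cycle brakes, had 495, 454 and 456 CPM in CPTH6 libraries, against 302, 307 and 284 CPM in ML324 libraries (log2 fold change 0.65 ± 0.10, 95% interval 0.43 to 0.88), and among targets of glucocorticoids Tsc22d3 had 94.7, 172 and 125 CPM in CPTH6 libraries, against 74, 75.1 and 58.9 CPM in ML324 libraries (0.91 ± 0.21). Mt1, a zinc-binding metallothionein, had 532, 807 and 573 CPM in CPTH6 libraries, against 338, 404 and 388 CPM in ML324 libraries (0.76 ± 0.17).

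Macrophage genes leaned toward CPTH6. Of 17 macrophage and Kupffer cell markers, 4 (23.5%) were above and 0 below, against 9.44% and 10% of all genes. Their median of 0.37 ran between 0.13 and 0.68 as single libraries were left out. Lyz2, a lysozyme of myeloid cells, had 275, 443 and 398 CPM in CPTH6 libraries, against 231, 217 and 198 CPM in ML324 libraries (log2 fold change 0.79 ± 0.18, 95% interval 0.39 to 1.19). C1qb and C1qc, complement chains made by tissue macrophages, differed by 0.51 ± 0.20 and 0.52 ± 0.18, and Cd68, a lysosomal protein, by 0.42 ± 0.12. Their levels remained low beside duct genes: C1qb had 44.9, 46.4 and 51.1 CPM in CPTH6 libraries, against 37.3, 40.6 and 22.2 CPM in ML324 libraries. In bulk RNA, fewer cells of a type and less RNA per cell cannot be told apart. Of 12 genes of lipid-associated macrophages, 6 (50.0%) were above and 0 below (median 0.48). Gpnmb had 36.4, 38.1 and 38.7 CPM in CPTH6 libraries, against 19.1, 17.1 and 10.1 CPM in ML324 libraries (log2 fold change 1.29 ± 0.21, 95% interval 0.80 to 1.78), Trem2, a lipid receptor of these cells, had 4.50, 6.63 and 6.63 CPM in CPTH6 libraries, against 3.75, 3.41 and 3.08 CPM in ML324 libraries (0.79 ± 0.24), and Mmp12, the macrophage elastase, had 18.6, 20.2 and 26.6 CPM in CPTH6 libraries, against 13.9, 10.1 and 7.97 CPM in ML324 libraries (1.03 ± 0.23). All 3 were separate between the groups. Atp6v0d2, a proton pump subunit of osteoclasts and macrophages chosen after its values were seen, had 6.32, 7.66 and 7.32 CPM in CPTH6 libraries, against 2.26, 1.97 and 1.63 CPM in ML324 libraries (log2 fold change 1.86 ± 0.23, 95% interval 1.32 to 2.40). Spp1, or osteopontin, is listed both here and among cholangiocyte markers and had 6614, 7401 and 6117 CPM in CPTH6 libraries, against 4586, 5004 and 4496 CPM in ML324 libraries (0.52 ± 0.13).

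Genes of mitosis leaned toward CPTH6 as well, at low levels. Of 30 members tested, 13 (43.3%) were above and 0 below, against 9.44% and 10% of all genes. Differences were positive in 27, and DESeq2 called 2 higher, against 1.24% over all genes. The median was 0.51, between 0.39 and 0.67 with any 1 library left out and 0.26 with the marker covariates. Mki67, the common marker of cycling cells, had 15.7, 30.4 and 26.8 CPM in CPTH6 libraries, against 12.5, 14.1 and 13.7 CPM in ML324 libraries (log2 fold change 0.86 ± 0.23, 95% interval 0.33 to 1.39). Cdk1, the kinase that starts mitosis, had 4.57, 5.94 and 4.04 CPM in CPTH6 libraries, against 1.99, 2.43 and 2.56 CPM in ML324 libraries (log2 fold change 1.06 ± 0.26, 95% interval 0.47 to 1.66). The spindle genes Tpx2, Aurka and Cenpe differed by 0.93 ± 0.24, 0.80 ± 0.25 and 0.94 ± 0.25. Top2a overlapped narrowly, with 13.8, 26.1 and 21.2 CPM in CPTH6 libraries, against 10.7, 11.8 and 14.4 CPM in ML324 libraries. Mki67 and Top2a were highest in CPTH6 replicates 2 and 3, which were also high in Ngp. For Cdk1, replicate 3 was instead the lowest CPTH6 library. Whether this RNA came from duct cells or from other cells was not tested. DNA replication did not follow: 3 of 36 were above and 0 below, the median was -0.01, and Rrm2 (0.78 ± 0.23) and Tk1 (-0.65 ± 0.24), which both supply DNA precursors, differed in opposite directions. Cdkn1a, which encodes a cell cycle inhibitor, had 853, 800.4 and 668 CPM in CPTH6 libraries, against 675, 553 and 750 CPM in ML324 libraries (log2 fold change 0.23 ± 0.15, 95% interval -0.11 to 0.57), with overlap.

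Transcripts of the mitochondrial genome leaned toward CPTH6 with few exceptions. Of 13 protein-coding members, 11 (84.6%) were above and 0 below, against 9.44% and 10% of all genes. DESeq2 called 5 higher, against 1.24% over all genes, and the median was 0.38, between 0.35 and 0.47 with any 1 library left out. For mt-Cytb, a subunit of complex III, the levels were 2887, 3715 and 2795 CPM in CPTH6 libraries, against 1886, 1999 and 2060 CPM in ML324 libraries (0.66 ± 0.14). For mt-Nd4, a subunit of complex I, they were 1318, 1359 and 1227 CPM in CPTH6 libraries, against 855, 877 and 891 CPM in ML324 libraries (0.57 ± 0.10). The 2 ribosomal RNAs, mt-Rnr1 and mt-Rnr2, differed more, at 0.89 ± 0.16 and 1.15 ± 0.18, and mt-Rnr2 had 1020, 976 and 969 CPM in CPTH6 libraries, against 344, 565 and 427 CPM in ML324 libraries. The subunits of the same complexes that the nucleus encodes did not share this: 0 of 33 were above, 2 below, and the median was -0.10. These differences go with the mitochondrial share of counts given above, which is counted from the same genes.

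Several further transcripts, chosen after their values were seen except for Leng8, stood lower with CPTH6. Malat1, a long noncoding RNA kept in nuclear speckles, had 1617, 692 and 1576 CPM in CPTH6 libraries, against 2752, 2482 and 2303 CPM in ML324 libraries (log2 fold change -0.96 ± 0.29, 95% interval -1.63 to -0.28). Neat1, the scaffold of paraspeckles, had 169.8, 53.2 and 118 CPM in CPTH6 libraries, against 303, 199 and 162 CPM in ML324 libraries (-0.96 ± 0.39), with overlap. Leng8 had 99, 61 and 87.7 CPM in CPTH6 libraries, against 256, 173 and 175 CPM in ML324 libraries (log2 fold change -1.29 ± 0.22, 95% interval -1.78 to -0.79). The splicing and RNA-binding genes Arglu1, Pnisr, Snrnp70, Nktr and Son lay between -0.76 and -0.38, all below, and Ogt, the transferase that adds N-acetylglucosamine to nuclear proteins, stood at -0.74 ± 0.12. Pan2, a subunit of a deadenylase, had 46.8, 41.3 and 45.2 CPM in CPTH6 libraries, against 69.3, 68.6 and 66.9 CPM in ML324 libraries (-0.62 ± 0.09). CPTH6 replicate 2 was the lowest library in each of these 10 genes, and it also had the lowest share of long noncoding RNA. The mitochondrial share is counted from the mitochondrial genes themselves, and the noncoding share includes Malat1 and Neat1, so these move together by construction. The shares also moved with the other genes named here, and the depth with both sets of genes. The part of shares or depth in either result was not tested.

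Among stress and recycling pathways, the autophagy, heat shock and ATF4 lists had larger shares above than all genes, although not all medians were far from 0. The shares above of the unfolded protein response and NRF2 lists were near that of all genes. Of 30 autophagy and lysosome genes, 13 (43.3%) were above and 2 (6.67%) below, against 9.44% and 10% of all genes, with a median of 0.19. Sqstm1, a receptor that brings cargo to autophagy, had 3505, 3599 and 3398 CPM in CPTH6 libraries, against 2333, 2331 and 2516 CPM in ML324 libraries (log2 fold change 0.55 ± 0.11, 95% interval 0.30 to 0.80) and was called higher by DESeq2. Map1lc3b, which marks autophagosomes, had 379, 458 and 375 CPM in CPTH6 libraries, against 308, 324 and 265 CPM in ML324 libraries (0.43 ± 0.13), and Atg13 stood at 0.31 ± 0.08. Heat shock proteins had 6 of 18 (33.3%) above and 0 below, led by Hspa8 with 1091, 2030 and 1543 CPM in CPTH6 libraries, against 1072, 712 and 923 CPM in ML324 libraries (0.79 ± 0.24), Bag3 (0.64 ± 0.18) and Hsp90aa1 (0.47 ± 0.13), although the median of the list was 0.08. In the unfolded protein response 3 of 23 (13.0%) were above and 1 (4.35%) below, with a median of 0.04. Its member with the smallest p was Dnajb9, a chaperone of the endoplasmic reticulum, with 236, 238 and 215 CPM in CPTH6 libraries, against 145, 157 and 156 CPM in ML324 libraries (log2 fold change 0.59 ± 0.10, 95% interval 0.37 to 0.81). ATF4 targets had 6 of 24 (25.0%) above, among them Gdf15 (0.57 ± 0.14) and Atf3 (0.38 ± 0.12), and 0 below. Their median of 0.15 ran between 0.01 and 0.35 as single libraries were left out. Gclc, the first enzyme of glutathione synthesis and a target of NRF2, had 409, 290.1 and 469 CPM in CPTH6 libraries, against 519, 660.2 and 780.1 CPM in ML324 libraries (log2 fold change -0.75 ± 0.21, 95% interval -1.23 to -0.27), opposite in sign to Sqstm1, which NRF2 also drives. The NRF2 list as a whole had 2 of 22 (9.09%) above and 1 (4.55%) below. Its differences were negative in 15 members and positive in 7, with a median of -0.09.

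Genes of duct identity gave small differences, most of them with overlap. Of 20 cholangiocyte markers, 2 were above (Spp1 and the surface protein Prom1, 0.40 ± 0.14) and 0 below, and the median was 0.09. Krt19 differed by -0.03 ± 0.16 (95% interval -0.40 to 0.35), Epcam by 0.11 ± 0.13 (-0.19 to 0.41) and Krt7 by -0.40 ± 0.23 (-0.94 to 0.13). Of 23 biliary transcription factors, 1 was above. Of 13 genes of inherited polycystic disease, 0 were above and 1 below. That member was Pkd1, which encodes polycystin-1, at -0.23 ± 0.11 (-0.47 to 0.01), and its partner Pkd2 stood at 0.28 ± 0.13 (-0.02 to 0.59) and Pkhd1 at 0.06 ± 0.13 (-0.25 to 0.36). Primary cilium genes had 5 of 37 above and 2 below around a median of 0.03, and Arl13b, a GTPase of the ciliary membrane, had 54.4, 62.6 and 51.2 CPM in CPTH6 libraries, against 43, 38.7 and 38.4 CPM in ML324 libraries (0.48 ± 0.11).

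Single genes of the apical surface and of secretion differed more. Cldn2, a claudin that forms pores for cations and water, had 73.9, 48.3 and 51 CPM in CPTH6 libraries, against 91.8, 109 and 146 CPM in ML324 libraries (log2 fold change -1.003 ± 0.21, 95% interval -1.49 to -0.51). Vil1, the villin of brush borders, had 18.9, 11.6 and 16.4 CPM in CPTH6 libraries, against 29.1, 26.3 and 40.8 CPM in ML324 libraries (log2 fold change -1.03 ± 0.22, 95% interval -1.54 to -0.52), and Anpep, a brush border peptidase, differed the other way at 0.70 ± 0.21. Pigr, the receptor that carries immunoglobulin A across ducts, had 549, 746 and 599.5 CPM in CPTH6 libraries, against 755, 1161 and 1103 CPM in ML324 libraries (-0.67 ± 0.19). Dmbt1, a mucosal scavenger protein, had 3270, 3462 and 2633 CPM in CPTH6 libraries, against 3912, 4473 and 8214 CPM in ML324 libraries (-0.83 ± 0.28), and Duoxa2, which matures Duox2, stood at -0.79 ± 0.31 with overlap. ML324 replicate 3 was highest in Duox2, Duoxa2, Dmbt1, Cldn2, Vil1 and Spink4. Among carbonic anhydrases, which supply bicarbonate, Car4 had 99.1, 144 and 138 CPM in CPTH6 libraries, against 93.2, 53.1 and 59.8 CPM in ML324 libraries (0.89 ± 0.23) and Car12 11.1, 9.02 and 9.49 CPM in CPTH6 libraries, against 16.1, 12.7 and 22.3 CPM in ML324 libraries (-0.79 ± 0.21), so that the pair differed in opposite directions. Abcb1a, a drug exporter, stood at 0.35 ± 0.10, and Igf1, a growth factor of cyst epithelium, at 0.96 ± 0.25 with 10.6, 14.4 and 14.3 CPM with CPTH6 and 7.17, 8.61 and 4.48 CPM with ML324. Areg, an EGF receptor ligand, had 54.3, 34.7 and 34.1 CPM in CPTH6 libraries, against 74.3, 49.1 and 67 CPM in ML324 libraries (-0.63 ± 0.22), with overlap. The Wnt, YAP and EGF lists had 0 members above and 0 below of 22, 22 and 15, and Notch 4 of 20 above and 0 below. Among the Notch members above was the ligand Dll1 (0.43 ± 0.12). Differences were negative in 6 of the 20, among them the ligand Jag2 (-0.60 ± 0.18), with overlap.

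Of the circadian clock genes, 4 of 19 were above and 1 below. Nfil3, a repressor, had 71.8, 117 and 82.7 CPM in CPTH6 libraries, against 58.8, 55.9 and 41.2 CPM in ML324 libraries (0.80 ± 0.20), and Cry1, another repressor, had 26.6, 56.5 and 39 CPM in CPTH6 libraries, against 23.5, 22.2 and 22.6 CPM in ML324 libraries (0.84 ± 0.24). Dbp, an output gene with a strong daily rhythm, had 9.61, 10.9 and 36.7 CPM in CPTH6 libraries, against 42.1, 25.4 and 70.5 CPM in ML324 libraries, and Arntl, which cycles in the opposite phase, had 69.8, 64.7 and 29.4 CPM in CPTH6 libraries, against 29.6, 48.1 and 6.22 CPM in ML324 libraries. Both varied several-fold within each group and overlapped, with ML324 replicate 3 highest in Dbp and lowest in Arntl. The hour at which samples were taken is not given in the sources used here, and its part was not tested.

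Cells other than ducts left RNA in these libraries, and it was uneven between replicates. Of 18 endothelial markers 0 were above and 0 below, and their summed level was 312, 473 and 376 CPM with CPTH6 and 237, 1019 and 250.4 CPM with ML324. Kdr, a receptor of endothelial cells, had 15.6, 24.1 and 21.1 CPM in CPTH6 libraries, against 12.6, 72.1 and 14.4 CPM in ML324 libraries, with ML324 replicate 2 alone high. Fibroblast markers summed to 985, 952 and 962 CPM with CPTH6 and 837, 1651 and 983 CPM with ML324, and smooth muscle markers to 156, 158 and 155 CPM with CPTH6 and 106, 394 and 131 CPM with ML324. The medians of these lists were -0.32, -0.46 and -0.26 in that order of naming, and without ML324 replicate 2 they turned to 0.79, 0.20 and 0.78. Neutrophil markers summed to 147, 840.1 and 1196 CPM with CPTH6 and 306, 909 and 193 CPM with ML324, and the list median of 0.66 ran between 0.11 and 2.48 as single libraries were left out and was 0.20 with the marker covariates. The signs of the endothelial, fibroblast and smooth muscle lists therefore rested on a single library. Of 28 hepatocyte markers 19 were tested, with 6 (31.6%) above and 0 below, against 9.44% and 10% of all genes. Differences were positive in 13 and negative in 6, between -0.66 and 1.56, with a median of 0.3. The mean of their log2 levels overlapped between the groups, at 4.09, 4.22 and 3.77 with CPTH6 and 3.72, 3.66 and 3.89 with ML324. The summed levels of these markers were 6866, 6865 and 5861 CPM with CPTH6 and 5507, 4497 and 4188 CPM with ML324. Most of that sum was Alb, the albumin gene, with 5136, 5195 and 4372 CPM in CPTH6 libraries, against 4102, 3349 and 2794 CPM in ML324 libraries (0.52 ± 0.17), and Arg1, a urea cycle enzyme that macrophages also express, stood at 1.07 ± 0.23. Hepatocytes also oxidise fatty acids, and the part of their RNA in the result for that pathway was not tested.

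Beside the untreated groups at 2 months, the compounds' levels can be placed but not compared, because time, library set and treatment cannot be told apart. Acot1 was at 35.8, 107 and 35.9 CPM in untreated PLD and 23.7, 20.1 and 18.5 CPM in WT libraries. Gpnmb was at 37.2, 59 and 43.2 CPM in untreated PLD and 41.5, 32.5 and 39.8 CPM in WT, near the level of CPTH6 libraries, which left the ML324 libraries as the lowest. Leng8 was at 94.9, 98.1 and 95.7 CPM in untreated PLD, again near CPTH6, and at 155, 175 and 197 CPM in WT. For mt-Rnr2 the untreated PLD libraries had 466, 621 and 246 CPM and the WT libraries 414, 368 and 711 CPM. These lay below every CPTH6 library and overlapped the ML324 libraries. The other ribosomal RNA, mt-Rnr1, did not share this: untreated PLD libraries had 472, 1046 and 205 CPM, against 1125, 1010 and 1155 CPM with CPTH6, with overlap. Ccl6 was at 22.8, 17.4 and 26.3 CPM in untreated PLD, near ML324 libraries at 25.4, 29.6 and 24.5 CPM. Zfp296 was at 6.05, 6.37 and 4.69 CPM in untreated PLD, again near ML324, at 5.02, 7.69 and 8.14 CPM. Which treated group lay nearer therefore differed by gene. Isg15 was at 42.8, 314 and 62.6 CPM in untreated PLD and 41.5, 51.3 and 20.2 CPM in WT, and PLD replicate 2 stood far above all others. Chil3 was at 28.3, 65 and 21.8 CPM in untreated PLD and only 0.348, 0.496 and 2.20 CPM in WT. Duox2 had 199.8, 183 and 296 CPM in untreated PLD, close to CPTH6 libraries, and 73.2, 95.3 and 3.20 CPM in WT.

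**Figure D4:**
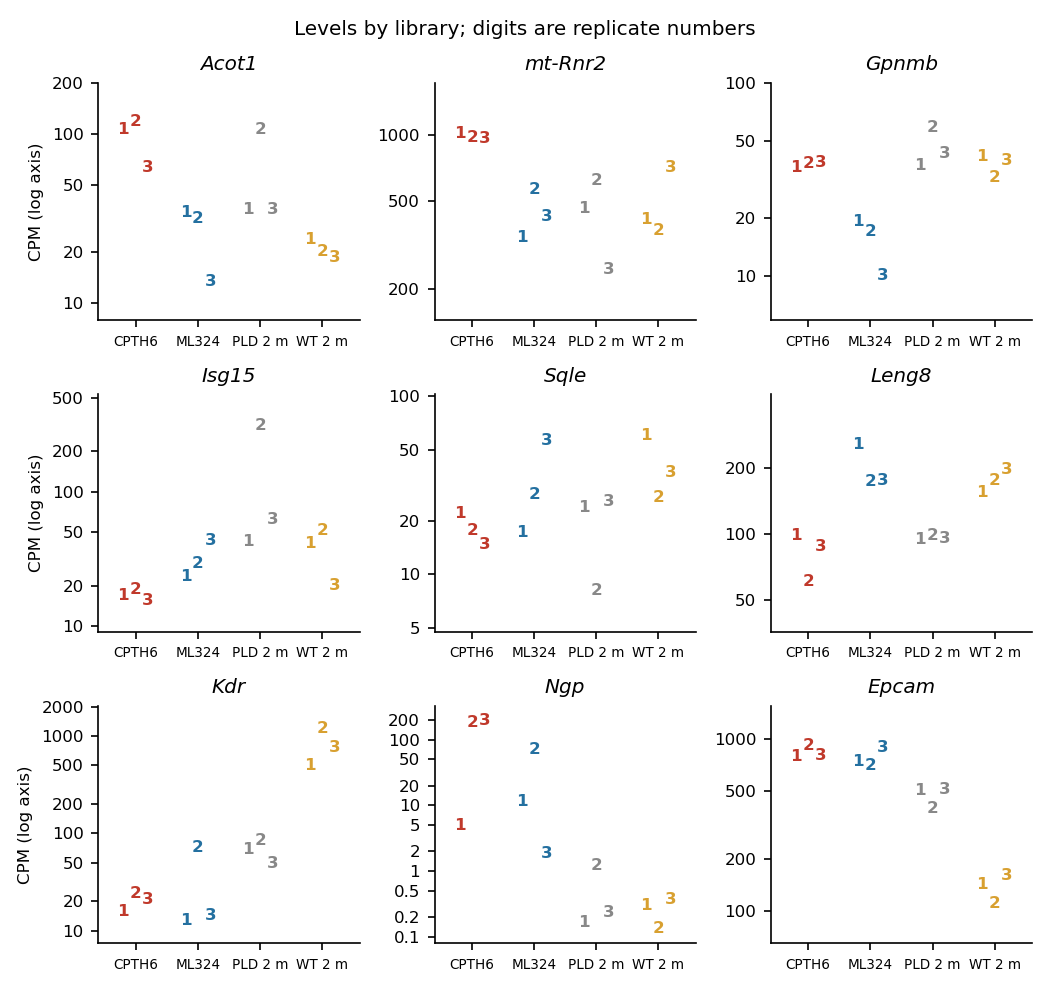
CPM (vertical log axes) of 9 genes in CPTH6, ML324, untreated PLD at 2 months and WT at 2 months; each digit is 1 library and gives its replicate number. Acot1, mt-Rnr2 and Gpnmb are above, and Isg15 and Leng8 below, in all CPTH6 libraries relative to all ML324 libraries; ML324 replicate 3 stands high in Sqle, ML324 replicate 2 in Kdr, and the Ngp levels of treated libraries spread from 1.86 to 192 CPM.

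Across the 67 gene lists, 0 members were called by edgeR. The medians of the 64 lists with at least 5 tested genes ran between -0.54 and 0.66, and 47 of them lay within 0.25 of 0. Ribosomal proteins, with 5 of 35 above and 1 below, stood at 0.08, targets of p53 at 0.11, glycolysis and hypoxia targets at 0.20 with Slc2a1, the glucose transporter, at 0.52 ± 0.11, and basement membrane and integrin genes at 0.09. Of the 17 others, 14 kept their sign with each library left out in turn, among them mitosis, lipid-associated macrophages, mitochondrial transcripts, immediate early genes and fatty acid oxidation on the positive side and interferon response on the negative side. Sterol synthesis did so by a margin of 0.01, and endothelial, fibroblast and smooth muscle markers did not.

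**Figure D5:**
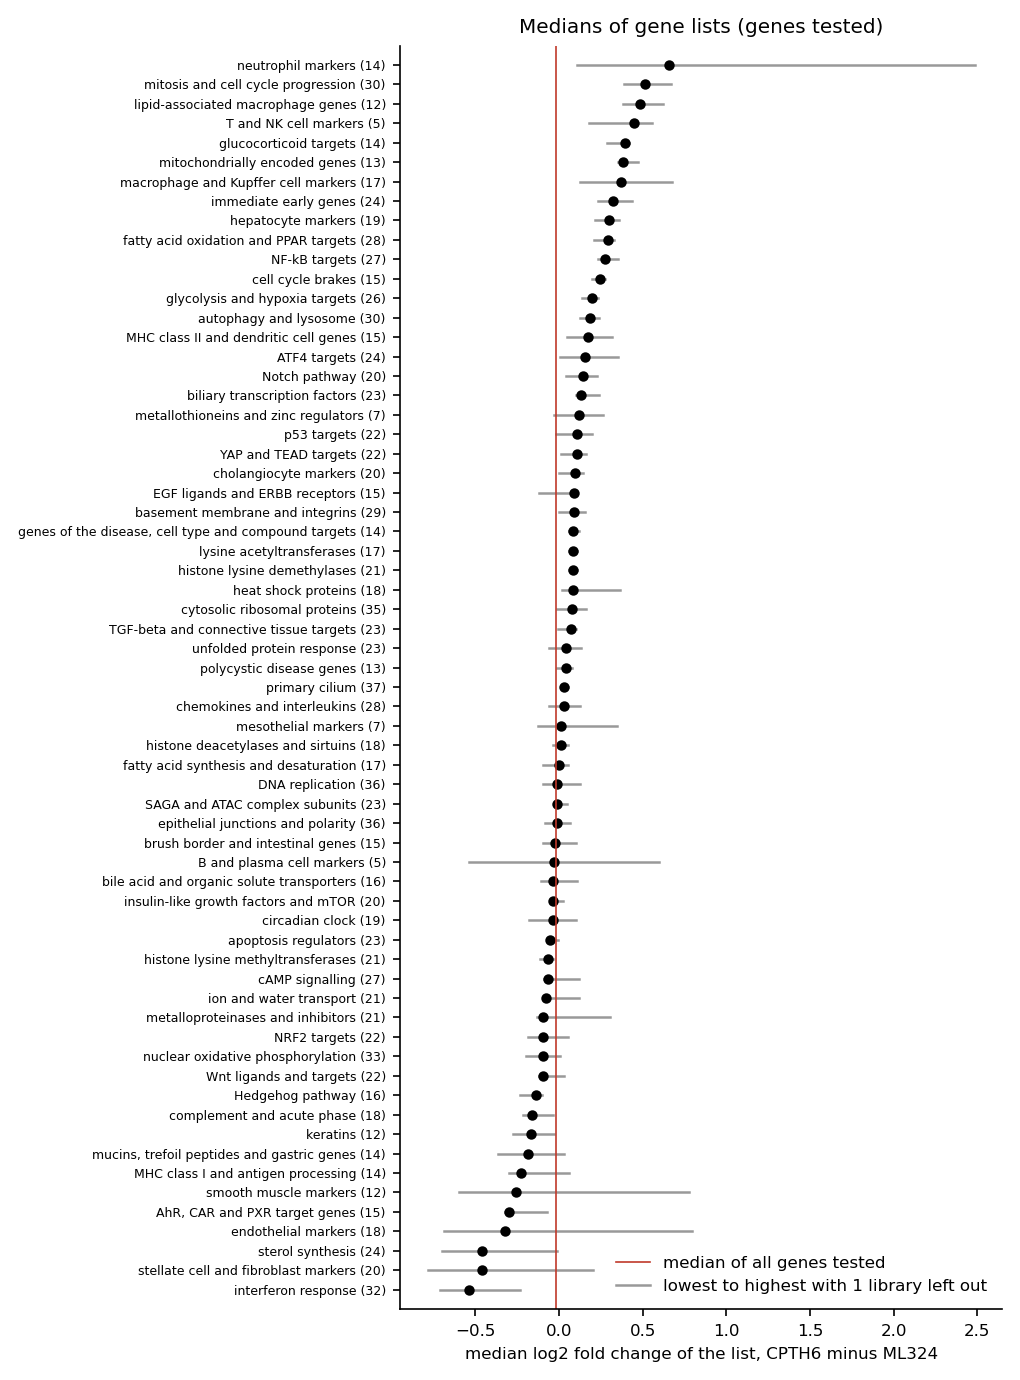
Median log2 fold change of CPTH6 over ML324 (horizontal axis) for the 64 gene lists with at least 5 tested genes, whose number is in brackets. Black points use all 6 libraries and grey lines span the medians with 1 library left out in turn; the lines of endothelial, fibroblast and smooth muscle markers cross 0, and the red line is the median of all genes at -0.02.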

How the data were processed

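RNA of 18 libraries of mouse primary cholangiocytes was deposited by the authors as counts per gene. Per the file headers, counts were made with featureCounts 1.6.0 in paired-end mode on the GENCODE vM25 annotation of mm10, with no option for strand or for reads of several sites. The submitters' processing notes also name STAR 2.7.4a, SAMtools 1.12 and DESeq2 1.26.0. Symbols came from the reference annotation for 55141 of 55401 gene IDs.

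Counts of the 6 treated libraries went into edgeR 4.0.16 (R 4.3.3): filterByExpr, TMM factors, a mean per group, the quasi-likelihood F-test and Benjamini-Hochberg adjustment over all genes, at a threshold of 0.05. The fit had 4 residual degrees of freedom. The script was checked on simulated counts. DESeq2 1.42.0, limma-voom (limma 3.58.1), other factors, filters and sample sets, a replicate block, marker covariates and leaving out each library were alternatives; thinning to the lowest total and leaving out mitochondrial and immunoglobulin genes were added after seeing the data. Principal components used log2 CPM with a prior count of 2. Untreated libraries were put on the same TMM scale. The 67 gene lists and the comparison itself were chosen with earlier results of these data known, and no list was tested. Named genes are the 10 largest differences each way with no overlap, at least 10 CPM and a proper symbol, up to 2 members of each list with the smallest p, and a list of disease, cell type and target genes. Some genes that this rule names are not reported here. As no gene was called, an unadjusted p under 0.05 took the place of a call in that rule; this, and any other gene named, was chosen after its values were seen. Total counts of 16345740 to 29161949 per treated library limit the precision of genes of a few CPM.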

Additional observations from a re-analysis of the deposited data

How the results depend on the processing

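edgeR called 0 genes with RLE factors, total counts, a filter of 1 CPM, the fit with untreated PLD, the fit of all 18 libraries, thinned counts and without mitochondrial and immunoglobulin genes, as did limma-voom. Other settings called some: DESeq2 299 and edgeR with no filter beyond 1 count 232, of which 184 are shared (61.5% of DESeq2's and 79.3% of the other's), and the endothelial and fibroblast marker covariates 1, Gm10800. Leaving out 1 library gave 0 to 3 calls, and the 3 (Gm6969, Ifi202b and BC002163) came without ML324 replicate 3; the cause was not tested. With a replicate block 1 gene was called, Acot1. Deviations of same-numbered libraries from their group means correlated at 0.338, 0.223 and -0.122. CPTH6 replicates 1 and 2 went best with the ML324 library of their own number, and CPTH6 replicate 3 with ML324 replicate 2 (0.273). The labels do not say whether numbers pair libraries, and with 3 libraries per group these correlations cannot decide it. With the marker covariates some list medians stayed near those without: interferon response at -0.46, mitochondrial transcripts at 0.43 and lipid-associated macrophages at 0.39. Others shrank, such as mitosis to 0.26 and sterol synthesis to -0.01. Of 213 named genes, 13 changed sign under some setting. Kat2a reached 0.014 with no filter and 0.0366 in the fit of all libraries, Krt19 0.0219 in that fit, Kdm4c -0.0177 with thinned counts, and Tpm2 and Psca 0.0662 and 0.0914 with the covariates. With 1 library left out the differences of duct and target genes ran between -0.0935 and 0.11 for Kat2a, -0.145 and 0.0932 for Krt19, -0.0704 and 0.158 for Pkhd1 and -0.36 and 0.14 for Psca. Those of genes of other cells ran between -1.09 and 0.60 for Kdr, -0.90 and 0.79 for Tek, -0.84 and 0.28 for Vwf, -0.83 and 0.25 for Egfl7, -0.58 and 0.13 for Col1a1, -1.36 and 0.35 for Upk3b and -0.80 and 0.60 for Ebf1, all highest without ML324 replicate 2. The ML324 libraries are shallower, each group has 3 libraries, and depth, mitochondrial share and compound cannot be told apart. Differences under about 0.41 on the log2 scale were within the typical 95% interval.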
